A study of Mus musculus with 12 samples.

Results

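The Kruppel-like factors (Klf) of blood cells were followed across 6 sorted mouse marrow populations by taking every array probe named Klf2, Klf3, Klf4, Klf6, Klf7, Klf9, Klf10, Klf12 or Klf13. This gave 10 probes of 39429, for 9 of the 31541 gene names on the array; 8 members passed the filter for signal above background, of 18565 genes that did. Klf12 did not pass. RNA came from bone marrow of female C57BL/6 mice aged 16 weeks that carry a human CD4 (hCD4) reporter named for the enhancer and promoter of Cebpa, the gene of the myeloid transcription factor C/EBPalpha. All 6 groups carry this transgene, so hCD4 on the cell surface reports those Cebpa elements and the groups include no transgene-free cells. The groups were hCD4+ granulocyte-monocyte progenitors (GMP), hCD4- and hCD4+ pre-pro-B cells, hCD4- and hCD4+ pro-B cells, and pre-B cells, whose hCD4 status the labels do not state. Each group had 2 one-colour arrays, 12 in all. The title speaks of a pair of mice, but which array came from which animal is not labelled, so p-values here measure only the spread between these arrays, which may be technical.

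Kruppel-like factors are transcription factors with a block of zinc fingers at the carboxy terminus that binds GC-rich and CACCC elements, and they differ mainly in the regions before the fingers. Klf2, Klf4, Klf6 and Klf7 are mostly described as activators; Klf2 and Klf4 are known for holding lymphocytes in a resting state, and Klf4 also for monocyte formation. Klf3 and Klf12 repress by recruiting the corepressor CtBP, and Klf9, Klf10 and Klf13 bind the corepressor Sin3. In the B lineage Klf2 is known as a target of the kinase ERK5 acting through MEF2 factors and as a regulator of homing receptors.

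Because the family binds CACCC, the promoters of its own genes were searched for that box (CACCC or GGGTG, so both strands) over the 250 bases before the annotated gene start, in the RefSeq promoter sequences of GRCm38.p6. Of the 9 members 8 matched this set by symbol, all but Klf10. The promoters of Klf2, Klf4 and Klf9 are shown because Klf2 and Klf4 moved together in the arrays below and Klf9 moved the other way. They lie at chr8:72318812-72319061 on the plus strand, chr4:55532476-55532725 on the minus strand and chr19:23140976-23141225 on the plus strand, and are written 5′ to 3′ with the box in capitals.
Klf2: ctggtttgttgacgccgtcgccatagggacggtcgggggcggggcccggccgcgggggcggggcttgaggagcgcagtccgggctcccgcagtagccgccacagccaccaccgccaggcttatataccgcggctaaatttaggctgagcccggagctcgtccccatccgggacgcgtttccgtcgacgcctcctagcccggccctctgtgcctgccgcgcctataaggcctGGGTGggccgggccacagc
Klf4: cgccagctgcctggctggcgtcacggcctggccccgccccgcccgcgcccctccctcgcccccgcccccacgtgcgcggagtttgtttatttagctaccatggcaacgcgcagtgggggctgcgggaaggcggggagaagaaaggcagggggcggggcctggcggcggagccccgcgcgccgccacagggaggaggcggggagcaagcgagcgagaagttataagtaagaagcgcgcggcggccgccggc
Klf9: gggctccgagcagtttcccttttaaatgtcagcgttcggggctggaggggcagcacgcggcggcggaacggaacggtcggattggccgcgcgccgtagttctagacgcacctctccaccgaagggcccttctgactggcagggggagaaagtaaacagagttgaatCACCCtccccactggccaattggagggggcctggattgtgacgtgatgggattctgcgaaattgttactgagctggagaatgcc
The Klf2 and Klf9 windows each held 1 box and the Klf4 window 0. Klf3 held 5 boxes, Klf7 held 3, Klf12 and Klf13 held 1 each, and Klf6 held 0. The box was present in 52% of all 32851 promoters of this length, and 6 of the 8 members' windows held it. A match is no measure of binding. The FOXO-type site TGTTTAC or GTAAACA was present in 3.17% of all promoters and, among members, in the Klf9 window alone (in lower case). The cAMP response element TGACGTCA (1.55% of promoters) and the AT run TATTTATA or TATAAATA (1.56%) were in none of the 8 windows. GC content was higher in the Klf3, Klf4, Klf13 and Klf2 windows (78.4%, 74%, 71.6% and 71.2%) than in Klf9, Klf7 and Klf12 (59.6%, 59.2% and 48%).

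Each probe is 60 bases long and was spotted once per array. On mm9, the build of the array annotation, the probes lie at chr8:74845137-74845196 (Klf2, plus strand), chr5:65221309-65221368 (Klf3, plus), chr4:55540167-55540226 (Klf4, minus), chr13:5869371-5869430 (Klf6, plus) and chr1:64082265-64082324 (Klf7, minus). Those of the other genes are chr19:23240410-23240469 (Klf9, plus), chr15:38224255-38224314 (Klf10, minus) and chr14:100270699-100270758 (Klf12, minus). Klf13 has 2 probes. The first, at chr7:71082854-71082913 on the minus strand, reads into the zinc fingers; capitals mark codons for a cysteine and 2 histidines at the spacing of a finger of this type.
Klf13 probe: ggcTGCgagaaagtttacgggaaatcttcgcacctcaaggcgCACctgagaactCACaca
The second, at chr7:71032482-71032541, is annotated to the plus strand, opposite to the first, from a complementary DNA clone. It was kept apart and is given separately below. None of the other 9 probes held this finger pattern, and the annotation used here does not say which part of a transcript a probe reads.

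Per array, 51% to 57.2% of probes were well above background and none was saturated. The 75th percentile of signal, to which each array was scaled, ran from 246.9 to 953. Levels below are log2 signals relative to that percentile (0 equals it), and they compare groups for 1 probe, not 1 gene with another. Slide 1 carried GMP with hCD4- pre-pro-B, slide 2 carried hCD4- pro-B with hCD4+ pre-pro-B, and slide 3 carried pre-B with hCD4+ pro-B. Outside these 3 within-slide comparisons the slide cannot be told apart from the group. All 6 GMP markers were above background on both GMP arrays, and Ebf1 and Pax5 on every pro-B and pre-B array. The GMP markers were also above background on both arrays in hCD4+ pre-pro-B (6 of 6, mean -0.31 and 0.68) and hCD4+ pro-B (6 of 6, 2.57 and 2.25). In hCD4- pre-pro-B, hCD4- pro-B and pre-B 3 of the 6 were. Cebpa itself was above background on both arrays in hCD4- pre-pro-B (-0.55 and -1.42), hCD4+ pre-pro-B (-0.35 and -0.64) and hCD4+ pro-B (-1.46 and -1.95). It was below background on both arrays in hCD4- pro-B and pre-B. In both pre-pro-B groups Ebf1 and Pax5 were not above background on any array. Of the 6 pro-B markers, 1 (Vpreb1) was above background on both hCD4- pre-pro-B arrays and 2 (Vpreb1 and Rag1) on both hCD4+ pre-pro-B arrays. The 4 plasmacytoid dendritic markers averaged 4.65 to 5.43 in the pre-pro-B arrays, against -0.52 to 2.24 elsewhere. The 4 classical dendritic markers averaged 3.36 to 3.54 there, against values below 0 elsewhere. Late neutrophil markers were highest in hCD4- pro-B, at a mean of 0.15 and -0.81 for 6 genes, against -2.78 or lower elsewhere. In such bulk samples, fewer cells of a type and less RNA per cell cannot be told apart. The part of these cell types in the results below was not tested.

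Klf2, Klf4, Klf6 and Klf7 shared a profile that was high in both pre-pro-B groups and lower in both pro-B groups. A fall to pro-B was not confined to them. Klf3, a repressor, was also lower in both steps (-0.64 in hCD4- and -0.45 in hCD4+ cells), and Klf13 in the hCD4+ step (-0.77). For Klf2 the hCD4- pre-pro-B arrays read 5.03 and 4.83 and the hCD4+ pre-pro-B arrays 5.23 and 4.7. The pro-B arrays read 3.89 and 3.4 (hCD4-) and 3.02 and 3.06 (hCD4+), and pre-B returned to 5.04 and 4.78. Every pre-pro-B and pre-B array lay above every pro-B array. The GMP arrays read 3.72 and 2.17, the widest gap between replicates of any group for this gene. In order of mean, hCD4+ pre-pro-B (4.96), hCD4- pre-pro-B (4.93) and pre-B (4.91) did not differ beyond their spread. Nor did hCD4- pro-B (3.64), hCD4+ pro-B (3.04) and GMP (2.95) from the next in order, while pre-B and hCD4- pro-B differed (limma, adjusted p = 0.0499). As background for these orders, GMP differed from hCD4- pro-B in 45.2% and from hCD4+ pro-B in 45% of all kept genes. The hCD4- pre-pro-B group differed from hCD4+ pro-B in 59.9% and from pre-B in 53.7%, and hCD4+ pre-pro-B differed from pre-B in 52.1%. The shares for the other pairs stand with the comparisons below.

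Klf4 read 3.01 and 2.87 in hCD4- pre-pro-B and 3.44 and 3.19 in hCD4+ pre-pro-B. It read 1.83 and 1.54 in hCD4- pro-B, 1.54 and 1.68 in hCD4+ pro-B, and 2.88 and 2.39 in pre-B. The pro-B groups overlapped each other and lay below all others, with GMP between them and pre-B at 2.18 and 1.84. Among neighbours in the order of means the step between pre-B and GMP alone was past the threshold (0.63, standard error 0.2, adjusted p = 0.0244).

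Klf6, which is known for rapid induction in injured or stimulated cells, read 4.68 and 4.76 in hCD4- pre-pro-B and 4.64 and 4.51 in hCD4+ pre-pro-B. It read 3.45 and 3.31 in hCD4- pro-B, 2.84 and 2.9 in hCD4+ pro-B, and 3.74 and 3.37 in pre-B. The GMP arrays read 4.75 and 3.3 and so lay far apart, the first beside the pre-pro-B arrays and the second below both hCD4- pro-B arrays. No neighbours in its order of means differed beyond their spread.

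Klf7, a family member first known from broad expression and from neurons, read 1.3 and 1.5 in hCD4- pre-pro-B and 1.26 and 1.14 in hCD4+ pre-pro-B. It read 0.5 and 0.63 in hCD4- pro-B, -0.29 and 0.04 in hCD4+ pro-B, 0.89 and 0.71 in pre-B, and 0.1 and 0.3 in GMP. The hCD4+ pro-B arrays were below all 10 other arrays. No 2 neighbours in the order differed beyond their spread, although 10 of the 15 pairs of groups did.

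Klf3, the CtBP-binding member that was detected, was highest in pre-pro-B and lowest in GMP. It read 1.75 and 2.07 in hCD4- pre-pro-B, 1.63 and 1.62 in hCD4+ pre-pro-B and 1.26 and 1.28 in hCD4- pro-B. It read 1.27 and 1.07 in hCD4+ pro-B, 1.19 and 1.07 in pre-B, and 0.48 and 0.53 in GMP. GMP lay below all other arrays, and its step from pre-B (0.62, standard error 0.13) was past the threshold (adjusted p = 0.00342), while the other neighbours did not differ beyond their spread. Klf12, the other member of this subgroup, stayed at background on all 12 arrays, with readings from -6.8 to -4.34.

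The Sin3-binding members did not share a profile. Klf9, a hormone-responsive factor known to restrain growth of B cells, had the widest range of the family. It read 0.32 and 0.11 in GMP, -1.79 and -2.02 in hCD4- pro-B, -2.41 and -2.12 in hCD4+ pro-B and -1.83 and -1.7 in pre-B. In both pre-pro-B groups all arrays were at background, at -6.75 and -6.28 (hCD4-) and -5.31 and -6.13 (hCD4+). GMP was above all other groups, hCD4- pro-B and pre-B overlapped, and hCD4+ pro-B lay just below both. Group means spanned 6.73, counting the values below background as read, and 97.5% of all kept genes spanned less. The other 7 members spanned 1.4 to 2.18, more than 46.2% to 68.5% of kept genes.

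Klf10, known as an early gene of TGF-beta signalling, was highest in hCD4- pro-B at 2.2 and 1.67. It read -0.03 and -0.46 in hCD4- pre-pro-B, 0.81 and 0.12 in hCD4+ pre-pro-B, 0.51 and 0.65 in hCD4+ pro-B, 0.9 and -0.07 in pre-B, and 0.95 and 0.55 in GMP. The hCD4- pro-B arrays were above all 10 others, and that mean (1.94) differed from the next, GMP (0.75, adjusted p = 0.0292). The remaining neighbours overlapped or did not differ beyond their spread.

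Klf13, known as a late activator of a chemokine gene in T cells, was highest in pre-B at 2.86 and 2.74. Its first probe read 2.28 and 1.64 in hCD4- pre-pro-B, 2.16 and 2.17 in hCD4+ pre-pro-B, 1.4 and 1.44 in hCD4- pro-B, 1.7 and 1.09 in hCD4+ pro-B, and 1.57 and 1.41 in GMP. The pre-B arrays were above all others, but no neighbours in the Klf13 order of means differed beyond their spread. The step from pre-B to hCD4+ pre-pro-B was 0.63 (standard error 0.24, adjusted p = 0.0576).

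**Figure D1:**
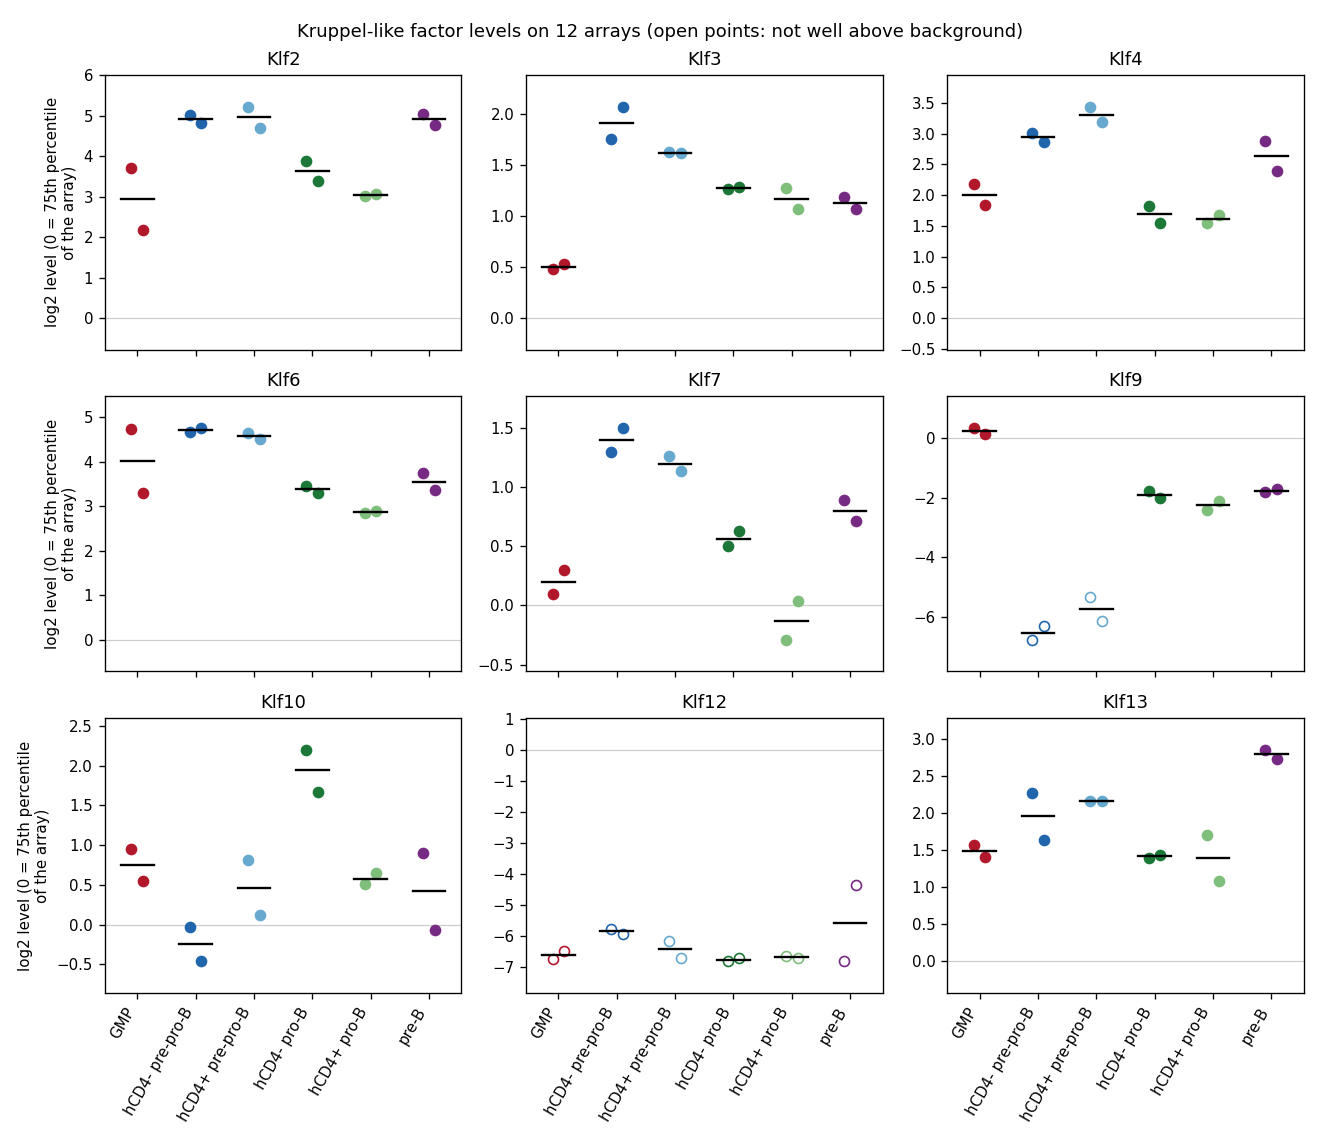
Level of each of the 9 members on all 12 arrays, with the 6 groups on the horizontal axis and the log2 level relative to the array's 75th percentile on the vertical axis, whose range differs between panels. Points are arrays, open where the probe was not well above background, and bars are group means: Klf2, Klf4, Klf6 and Klf7 dip in pro-B, Klf9 is below background in both pre-pro-B groups, and Klf12 is below background throughout.

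From hCD4- pre-pro-B to hCD4- pro-B 5 members fell and 2 rose of the 8 tested, where 59.6% of all kept genes were called (26.8% lower, 32.8% higher). The members' median change was -0.74 and that of all genes 0.03. Klf2 was lower by a log2 change of -1.29 (standard error 0.44, adjusted p = 0.0337), Klf4 by -1.25 (0.2, 0.000855), Klf6 by -1.34 (0.39, 0.0162), Klf7 by -0.83 (0.15, 0.00177) and Klf3 by -0.64 (0.13, 0.00349). Klf10 was higher by 2.18 (0.37, adjusted p = 0.00107). Klf9 was at least 14.9-fold higher in pro-B, a bound that takes, on each pre-pro-B array, the higher of Klf9's own reading and the dimmest probe above background (adjusted p of the fit 2.43e-06). Klf13 changed by -0.54 (0.24) and missed the threshold (adjusted p = 0.0853). Plasmacytoid dendritic markers went down in the same step, from a mean of 5.22 and 5.43 to 0.85 and 0.3. Classical dendritic markers were lower too (4 of 4, median -7.96), as were 4 of 6 monocyte markers, with 1 higher (-3.39). Of the late neutrophil markers 5 of 6 were higher (3.72). The part of these cell types in the Klf values was not tested. The Klf2 call was lost without any one of the 4 arrays compared: hCD4- pre-pro-B array 1 (adjusted p = 0.108) or array 2 (0.078), or hCD4- pro-B array 1 (0.0536) or array 2 (0.159). It was also lost with median scaling (-1.1, adjusted p = 0.0681) and array weights (0.0722). The Klf6 call was lost without hCD4- pre-pro-B array 2 (0.0626) or hCD4- pro-B array 1 (0.0503) or array 2 (0.072). Klf13 gained a call without hCD4- pre-pro-B array 2 (-0.87, adjusted p = 0.0163).

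From hCD4+ pre-pro-B to hCD4+ pro-B 6 members fell and 1 rose, against 54.1% of all kept genes called (21.2% lower, 32.9% higher). The median change was -1.05, and 0.25 over all genes. Klf2 was lower by -1.92 (standard error 0.44, adjusted p = 0.00657), Klf4 by -1.71 (0.2, 0.000215), Klf6 by -1.71 (0.39, 0.00616) and Klf7 by -1.33 (0.15, 0.000187). Klf3 (-0.45, 0.0208) and Klf13 (-0.77, 0.0268) were lower by less. Klf9 was at least 11-fold higher (adjusted p 2.47e-05). In hCD4+ pre-pro-B its own readings were the higher of the 2 on both arrays, so bounds against that group equal the fold between the measured means. Klf10 changed by 0.11 (0.37, adjusted p = 0.814), with overlapping arrays. In this step 4 of 4 classical dendritic (median -3.8), 3 of 4 plasmacytoid dendritic (-2.91) and 4 of 6 monocyte markers (-1.12) were lower. Of the GMP markers 4 of 6 were higher (2.66). The part of these cell types in the Klf values was not tested. The Klf3 call was lost without hCD4+ pre-pro-B array 1 (adjusted p = 0.0784) or array 2 (0.0745) or hCD4+ pro-B array 2 (-0.35, 0.119). The Klf13 call was lost without the same arrays, at 0.0867, 0.0908 and 0.173, and its change without hCD4+ pro-B array 2 was -0.47. With no filter on dim probes both calls were lost (Klf3 0.0525, Klf13 0.0539), which left 5. Klf2, Klf4, Klf6, Klf7 and Klf9 passed under all 14 alternatives run.

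Within slide 2, where slide cannot differ, 5 members were lower and 2 higher in hCD4- pro-B than in the hCD4+ cells one stage earlier, with 47.9% of genes called (18.6% lower, 29.3% higher). Klf4 was lower by -1.63 (standard error 0.2, adjusted p = 0.000274), Klf2 by -1.32 (0.44, 0.0373), Klf6 by -1.2 (0.39, 0.0322), Klf13 by -0.75 (0.24, 0.0331) and Klf7 by -0.64 (0.15, 0.0093). Klf10 was higher by 1.47 (0.37, 0.0106) and Klf9 at least 14.1-fold higher (adjusted p of the fit 1.1e-05). Klf3 was -0.35 (0.13) and missed the threshold (adjusted p = 0.0579), and it passed under 6 of its 14 alternatives (adjusted p from 0.0148 to 0.0404). This comparison crosses hCD4 status as well as stage. With any 1 of the 4 arrays left out 2 to 4 calls remained by count, 3 without hCD4+ pre-pro-B array 1 or array 2, 2 without hCD4- pro-B array 1 and 4 without hCD4- pro-B array 2. Klf4 and Klf9 were called in each of these. The calls of Klf2, Klf6 and Klf13 were lost in all 4, at adjusted p from 0.0571 to 0.179, 0.0865 to 0.122 and 0.0999 to 0.117, and with no filter on dim probes (0.0712, 0.0624 and 0.068). Klf7 lost its call without hCD4+ pre-pro-B array 1 (0.0577) or hCD4- pro-B array 1 (0.0609). Klf10 lost it without hCD4+ pre-pro-B array 2 (0.0738) or hCD4- pro-B array 1 (0.0728).

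From hCD4- pro-B to pre-B 3 members rose and 1 fell, where 41% of genes were called (19.8% higher, 21.2% lower). Klf13 was higher by 1.38 (standard error 0.24, adjusted p = 0.00297), Klf4 by 0.95 (0.2, 0.00719) and Klf2 by 1.27 (0.44, 0.0499). Klf10 was lower by -1.52 (0.37, 0.0122). Klf3 (-0.14), Klf6 (0.18), Klf7 (0.24) and Klf9 (0.14) did not pass. The Klf2 call was lost without hCD4- pro-B array 1 (adjusted p = 0.0832) or array 2 (0.213) and without pre-B array 1 (0.173) or array 2 (0.117), and with median scaling (1.08, 0.0936) or no filter on dim probes (0.0874). Klf4 lost its call without hCD4- pro-B array 2 (0.0544), and Klf10 without hCD4- pro-B array 1 (0.0772) or pre-B array 2 (-1.03, 0.0778). The count was 2 without hCD4- pro-B array 1, hCD4- pro-B array 2 or pre-B array 2.

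From hCD4+ pro-B to pre-B, both on slide 3, 4 members rose and 0 fell, where 42.9% of genes were called (19.1% higher, 23.8% lower). Klf2 was higher by 1.87 (standard error 0.44, adjusted p = 0.00973), Klf13 by 1.4 (0.24, 0.0021), Klf4 by 1.03 (0.2, 0.00408) and Klf7 by 0.93 (0.15, 0.00168). Klf6 was 0.68 (0.39) and missed the threshold at adjusted p = 0.194. With the GMP arrays out of the fit, whose Klf6 readings were far apart, the same change passed (adjusted p = 0.00875); that fit was chosen after the data were seen. Klf3 (-0.04), Klf9 (0.5) and Klf10 (-0.16) did not pass. The Klf2 call was lost without pre-B array 1 (adjusted p = 0.0555). Both steps to pre-B share the pre-B arrays, so their likeness is no separate evidence.

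**Figure D2:**
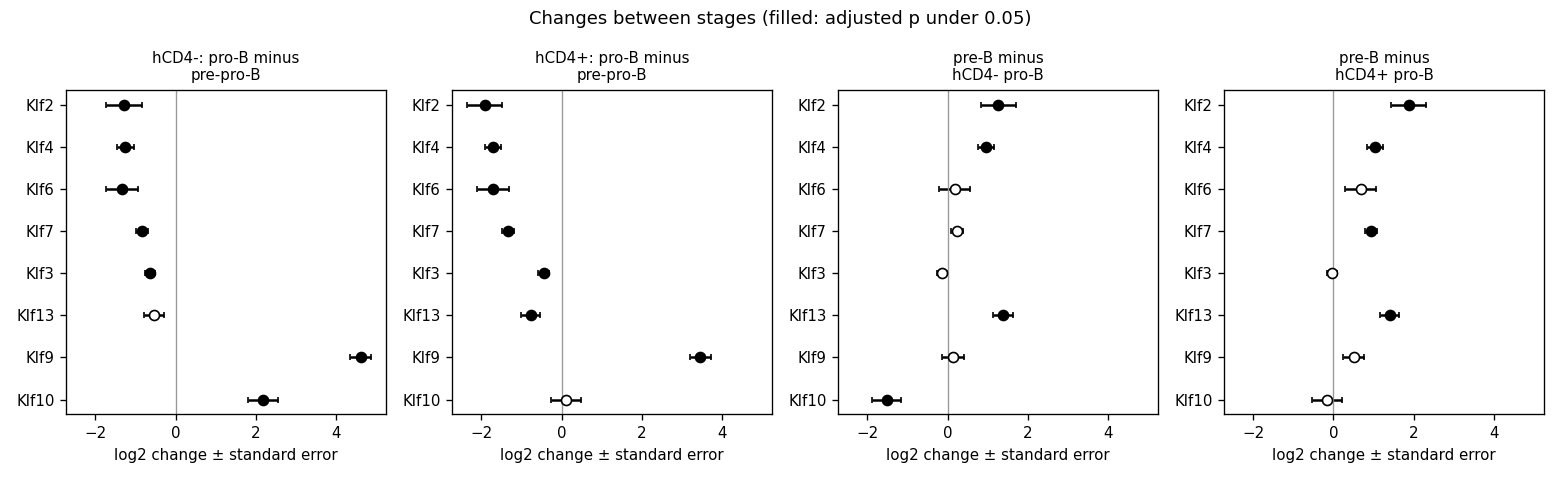
Changes of the 8 tested members at 4 stage steps, with the log2 change and its standard error from the model on the horizontal axis and filled points where the adjusted p was under 0.05. Klf2, Klf4, Klf6 and Klf7 lie left of 0 in both steps to pro-B, Klf2, Klf4 and Klf13 lie right of 0 in both steps to pre-B, and Klf10 is filled in the panels with hCD4- pro-B and open in the others.

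The hCD4 contrasts compare B progenitors that show the Cebpa reporter with those that do not. In pre-pro-B cells 0 of 8 members were called by limma at an adjusted p under 0.05, against 17% of all kept genes (8.82% higher, 8.14% lower). Before adjustment limma gave 1 member with a p under 0.05, Klf9, whose readings in both groups were below background and so have no order. Klf10 was 0.71 (standard error 0.37, adjusted p = 0.219), Klf4 0.37 (0.2, 0.241), Klf3 -0.28 (0.13, 0.179), and Klf2 0.03 (0.44, 0.968). Without hCD4- pre-pro-B array 1 Klf3 passed (-0.44, adjusted p = 0.0413).

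In pro-B cells 2 of 8 members were lower in hCD4+ cells and 0 higher, where 20.5% of genes were called (9.06% lower, 11.5% higher). Klf10 was lower by -1.36 (standard error 0.37, adjusted p = 0.035) and Klf7 by -0.69 (0.15, 0.0173). The arrays of the groups did not overlap for Klf10 and Klf7, nor for the uncalled Klf2, Klf6 and Klf9. Lack of overlap thus did not set the called members apart. Klf2 (-0.6), Klf6 (-0.51), Klf9 (-0.36), Klf3 (-0.1), Klf4 (-0.08) and Klf13 (-0.02) did not pass, with adjusted p from 0.372 to 0.962. Klf10 lost its call without hCD4- pro-B array 1 (adjusted p = 0.169) or array 2 (0.0744) and without hCD4+ pro-B array 1 (0.143) or array 2 (0.109). It was also lost with no filter on dim probes (0.0685). Klf7 lost its call without hCD4- pro-B array 1 (0.0573) or array 2 (0.108) or hCD4+ pro-B array 1 (0.0999). Beside these falls, late neutrophil markers were higher in the hCD4- pro-B arrays (0.15 and -0.81) than in the hCD4+ pro-B arrays (-3.41 and -4.88). All 6 GMP markers (median change 7.04), 4 of 4 classical dendritic (4.28), 5 of 6 monocyte (2.98) and 2 of 4 plasmacytoid dendritic markers (1.49) were higher in hCD4+ pro-B, and 4 of 6 late neutrophil markers lower (-4.19). Of the 17 immediate early and handling stress genes limma called 0 at an adjusted p under 0.05, and 5 at an unadjusted p under 0.05. Their median was -0.59. Their part in the Klf10 and Klf7 values was not tested.

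The difference between these contrasts was tested as an interaction. Both groups of slide 2 enter it with the same sign, and the other groups in it lie on slides 1 and 3. A slide effect therefore cannot be told apart from the interaction. Klf10 passed with -2.07 (standard error 0.52, adjusted p = 0.0261), the 1 member of 8 that did, where 23% of all genes were called (10.2% lower, 12.8% higher). Its hCD4 contrast was 0.71 in pre-pro-B and -1.36 in pro-B. The call was lost without hCD4- pre-pro-B array 2 (adjusted p = 0.0711), hCD4+ pre-pro-B array 1 (0.076), hCD4- pro-B array 1 (0.0776), or hCD4+ pro-B array 1 (0.0768) or array 2 (0.061), and with array weights (0.0568). Klf9 (-1.15, adjusted p = 0.0646) rests on pre-pro-B readings below background, and it passed without hCD4+ pre-pro-B array 2 (0.0225), which brought the count to 2. The 6 other members gave differences from -0.63 to 0.19 with adjusted p of 0.134 or more.

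**Figure D3:**
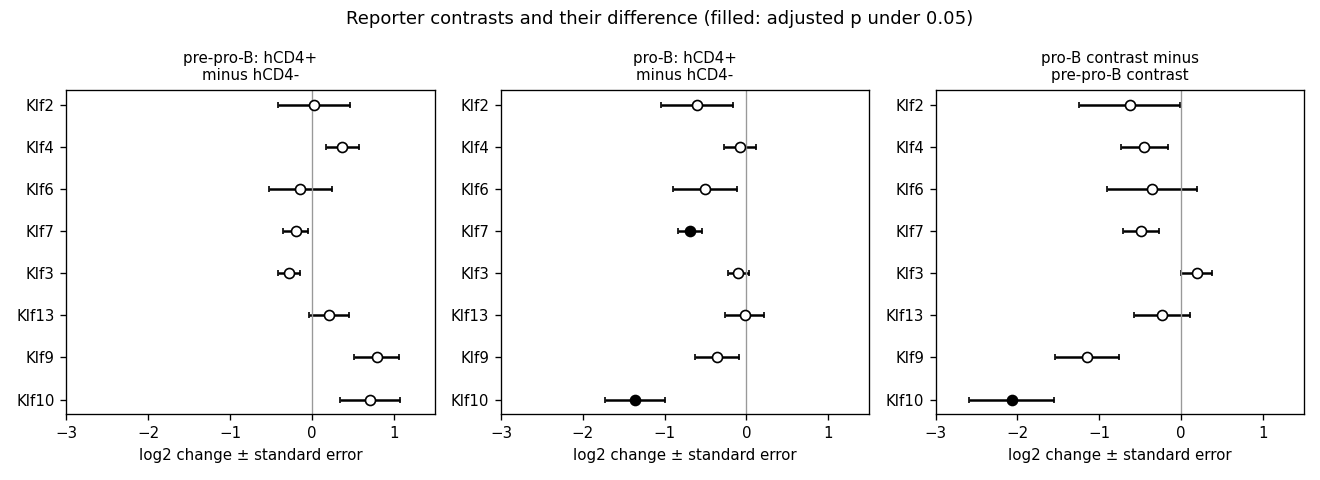
The hCD4+ minus hCD4- difference in pre-pro-B (left) and pro-B cells (middle), and the difference between both contrasts (right), as log2 values with standard errors. Filled points have an adjusted p under 0.05: Klf7 and Klf10 in pro-B, and Klf10 on the right at -2.07.

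GMP had more Klf9 than every B progenitor group, and less of most other members than both pre-pro-B groups and pre-B. Against pro-B fewer members differed, and fewer of all kept genes did too (45.2% against hCD4- and 45% against hCD4+ pro-B). Klf3 was lower in GMP than in hCD4- pro-B (-0.76, standard error 0.13, adjusted p = 0.00186) and hCD4+ pro-B (-0.67, 0.00418), and Klf9 higher (2.12, 0.27, 0.000347, and 2.48, 0.000184). Klf10 was lower than in hCD4- pro-B (-1.19, 0.0292) and Klf6 higher than in hCD4+ pro-B (1.15, 0.0403), a value that rests on GMP arrays far apart and was not refitted without one. Klf2, Klf4, Klf7 and Klf13 did not pass against either pro-B group. Against hCD4- pre-pro-B, on the same slide, 2 members were higher and 4 lower, where 65.5% of genes were called (34.7% higher, 30.8% lower). Klf9 was at least 65-fold higher (adjusted p of the fit 2.93e-07) and Klf10 higher by 0.99 (standard error 0.37, adjusted p = 0.0411). Klf2 was lower by -1.98 (0.44, 0.00411), Klf3 by -1.4 (0.13, 3.07e-05), Klf7 by -1.2 (0.15, 0.000182) and Klf4 by -0.93 (0.2, 0.00367). The Klf10 call was lost without GMP array 1 (adjusted p = 0.181) or array 2 (0.0579) or hCD4- pre-pro-B array 2 (0.18). It was also lost with normexp and quantile normalization (0.0549), quantile normalization (0.0547), no filter on dim probes (0.073), array weights (0.167) and the authors' deposited table (0.0613). Klf13 (-0.47, adjusted p = 0.121) gained a call without hCD4- pre-pro-B array 2 (0.0207), with normexp and quantile normalization (0.0282) and with quantile normalization (0.0458). Klf6 was -0.7 (0.39, adjusted p = 0.142), and without GMP array 1 it was -1.42 (0.000453). It also passed with normexp and quantile normalization (-1.16, 0.0192), quantile normalization (-1.16, 0.0293) and the authors' deposited table (-1.2, 0.0131).

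Against hCD4+ pre-pro-B, GMP was higher for 1 member and lower for 5, with 54.1% of genes called (31.3% higher, 22.9% lower). Klf9 was at least 61.4-fold higher. Klf2 was -2.02 (standard error 0.44, adjusted p = 0.00479), Klf4 -1.3 (0.2, 0.000761), Klf3 -1.12 (0.13, 0.000167), Klf7 -1 (0.15, 0.000717) and Klf13 -0.67 (0.24, 0.0442). The Klf13 call was lost without GMP array 1 (adjusted p = 0.0857) or array 2 (0.163) and without hCD4+ pre-pro-B array 1 (0.126) or array 2 (0.128). Klf6 gained a call without GMP array 1 (-1.28, 0.00106).

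Against pre-B, GMP was higher for 1 member and lower for 5, with 65.1% of genes called (30.4% higher, 34.6% lower). Klf9 was higher by 1.98 (standard error 0.27, adjusted p = 0.000306), here with both groups above background. Klf2 was -1.96 (0.44, 0.0045), Klf13 -1.3 (0.24, 0.00164), Klf4 -0.63 (0.2, 0.0244), Klf3 -0.62 (0.13, 0.00342) and Klf7 -0.6 (0.15, 0.00859). Klf4 lost its call without GMP array 2 (adjusted p = 0.137) or pre-B array 1 (0.165), and Klf7 without GMP array 1 (0.0565) or pre-B array 1 (0.0577). Klf6 was 0.47 (0.39, 0.312), and without GMP array 2 it was 1.19 (0.00117). With arrays scaled to their median instead, Klf3 (-0.17, adjusted p = 0.26), Klf4 (-0.17, 0.546) and Klf7 (-0.15, 0.419) lost their calls here, as did Klf4 against hCD4- pre-pro-B (-0.48, 0.108) and Klf13 against hCD4+ pre-pro-B (-0.52, 0.17). These GMP comparisons share the same GMP arrays, so their likeness is no separate evidence.

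Among the members the GMP arrays stood apart for Klf2 and Klf6. Array 1 exceeded array 2 by 1.55 for Klf2 and 1.45 for Klf6, and by -0.21 to 0.4 for the other 6. A list of immediate early genes, which respond within minutes to stimulation or handling, was read beside them with handling stress genes such as Hspa1a. In GMP all 17 tested were higher on array 1, with a median gap of 1.44, among them Egr1 (2.23), Hspa1a (2.16), Fos (1.32) and Atf3 (4.42). In the other groups the list's median gap was 0.04 to 0.54, with 9 (hCD4- pre-pro-B), 10 (hCD4+ pre-pro-B), 13 (hCD4- pro-B), 15 (hCD4+ pro-B) and 16 (pre-B) of the 17 higher on array 1. Hspa1a was higher on array 2 in the 5 other groups. The part of this in the Klf2 and Klf6 values was not tested. Over the alternatives, which include leaving out either GMP array, Klf2 stayed lower in GMP. Its change ran from -2.79 to -1.24 against hCD4+ pre-pro-B, -2.76 to -1.21 against hCD4- pre-pro-B and -2.74 to -1.19 against pre-B. Klf6 changed sign in each, running from -1.28 to 0.17, -1.42 to 0.03 and -0.26 to 1.19 in the same order.

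**Figure D4:**
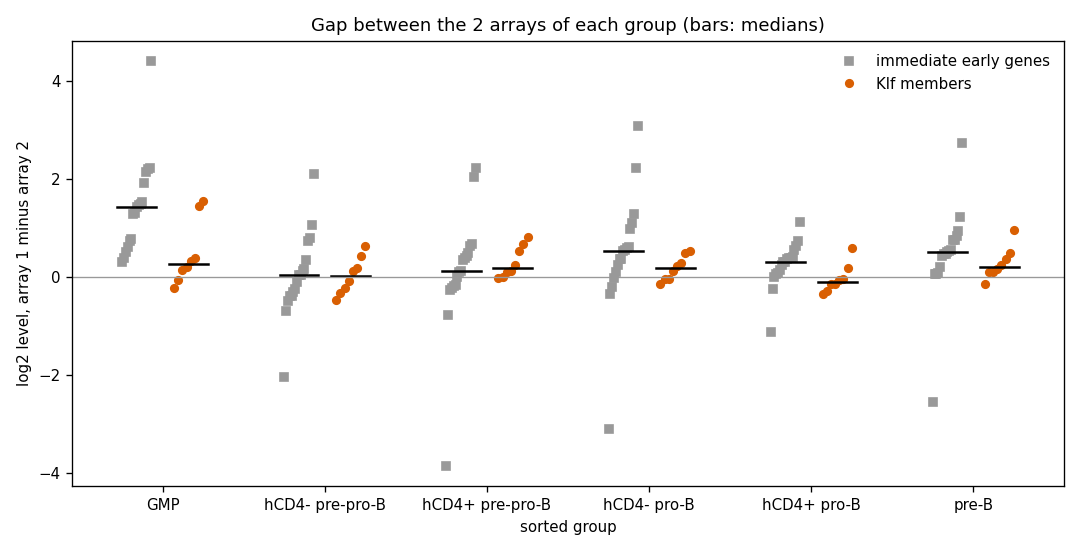
Log2 level on array 1 minus array 2 in each of the 6 groups, for 17 immediate early and handling stress genes (squares) and the 8 tested members (circles), with bars at the medians. In GMP all 17 squares lie above 0 with a median of 1.44, and Klf2 (1.55) and Klf6 (1.45) lie apart from the other members.

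Among the wider family, 12 other Klf and Sp genes were on the array and 8 passed the filter. From hCD4- pre-pro-B to pro-B 4 of these rose and 1 fell, against 2 and 5 of the members in the same comparison, and with a median of 0.38. That step called 59.6% of all kept genes (32.8% higher, 26.8% lower). The gene that fell was Klf8, a CtBP-binding relative of Klf3 (-1.03, standard error 0.14, adjusted p = 0.000346), which also fell in the hCD4+ step (-1.81, 0.14, 2.43e-05). Sp1, Sp2 and Sp4, relatives that bind GC boxes, rose by 0.6, 0.92 and 0.77 in the hCD4- step. They did not pass in the hCD4+ step (0.03, 0.06 and 0.3). There 1 of the 8 relatives rose and 2 fell, with a median of 0.04, where 54.1% of all kept genes were called. Klf16, a Sin3-binding relative of Klf9, was lower in pre-B than in hCD4- pro-B (-1.84, 0.18, 0.000168) and than in hCD4+ pro-B (-2.17, 4.12e-05). The other 4 of the 12 did not pass the filter.

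All 13 corepressors and coactivators listed for the family were tested. In the hCD4- step to pro-B 5 rose and 2 fell, with a median of 0.19, where 59.6% of all kept genes were called (32.8% higher, 26.8% lower). Sin3a (0.85), Hdac1 (0.83), Sap30 (0.65) and Ctbp2 (0.5) were among those that rose, and the acetyltransferases Crebbp (-1) and Ep300 (-0.76) fell. Ctbp2, a gene of the Klf3 partner CtBP, was 1.12 higher in hCD4+ than in hCD4- cells in pre-pro-B (adjusted p = 0.00423) and in pro-B (0.00383). It was lower in pre-B, where 1 of 2 arrays was above background, than in hCD4+ pro-B by -4.1 (standard error 0.17, adjusted p = 3.25e-06), and GMP stood above pre-B by 5.94 (5.88e-08). For Klf3 the change from hCD4+ pro-B to pre-B was -0.04 (adjusted p = 0.823). Ctbp1, the other CtBP gene listed, did not share the course of Ctbp2. Its hCD4 contrast was 0.06 in pre-pro-B (adjusted p = 0.729) and -0.1 in pro-B (0.539). From hCD4+ pro-B to pre-B Ctbp1 changed by 0.27 (0.0606), and GMP stood below pre-B by -0.44 (0.00506).

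Of 9 genes upstream of Klf2 (the ERK5 kinases, MEF2 and FOXO factors), 5 rose and 1 fell from hCD4+ pro-B to pre-B, with a median of 0.35, in the comparison in which Klf2 rose by 1.87. That comparison called 42.9% of all kept genes (19.1% higher, 23.8% lower). Mapk7, which encodes ERK5, read 1.81 and 1.7 in hCD4+ pro-B and 2.16 and 2.01 in pre-B (0.33, standard error 0.11, adjusted p = 0.0377). In hCD4- pro-B, from which Klf2 rose to pre-B by 1.27, Mapk7 read 2.16 and 2.07 and so overlapped pre-B. It was lower in hCD4+ pro-B than in hCD4+ pre-pro-B (-0.81, 0.11, 0.000372), where Klf2 fell too. Mef2d (0.77), Foxo1 (0.84), Map3k2 (0.68) and Foxo3 (0.5) rose to pre-B, and Mef2c fell (-0.67). Foxo1 differed from Klf2 in course: it rose from hCD4- pre-pro-B (2.58 and 2.34) to hCD4- pro-B (4.26 and 4.2), by 1.77 (0.13, adjusted p = 8.24e-06), while Klf2 fell. In GMP Foxo1 was lowest, at -1.37 and -1.21.

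Homing genes tied to Klf2 in mature lymphocytes were read beside it. Itgb7, an integrin chain, read 5.53 and 5.66 in hCD4- pre-pro-B, -1.04 and -1.94 in hCD4- pro-B, and 2.51 and 2.26 in hCD4+ pro-B. Like Klf2 it fell in both steps to pro-B, by -7.09 (hCD4-, standard error 0.37, adjusted p = 1.17e-06) and -3.18 (hCD4+, 0.000188). From hCD4+ pro-B to pre-B, where Klf2 rose, Itgb7 fell again (-4.68, 3.65e-05). S1pr1, the receptor for egress into blood, read -2.14 and -4.65 in hCD4- pre-pro-B, 1.52 and 1.14 in hCD4- pro-B, and 2.09 and 2.13 in pre-B. It was above background on 1 of the 2 arrays in each pre-pro-B group, and it rose to pro-B where Klf2 fell (4.73, 0.71, adjusted p = 0.000551).

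Klf2, Klf4 and Klf9 are known as brakes on growth, so the D cyclins, cyclin-dependent kinase inhibitors and Myc were read beside them. Of these 8 genes 7 rose and 1 fell in the hCD4- step to pro-B, with a median of 2.3, where 59.6% of all kept genes were called. Myc rose by 5.82 (standard error 0.37, adjusted p = 3.66e-06) and the inhibitor gene Cdkn1a by 5.62 (0.27, 7.36e-07), each above background on 1 of 2 arrays in hCD4- pre-pro-B, while the cyclin gene Ccnd1 fell by 6.62 on the log2 scale (1.11e-05). Myc then fell to pre-B by 2.9 from hCD4- pro-B (0.000698) and Ccnd2 by 1.9 (0.000773), in the comparison in which Klf2, Klf4 and Klf13 rose. Cdkn1a fell there too, by 1.3 (0.00609), while the inhibitor genes Cdkn1b (0.49, 0.0201) and Cdkn2c (0.53, 0.0355) rose, so 3 of the 8 fell and 2 rose. In that comparison 41% of all kept genes were called.

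Of 8 TGF-beta pathway genes, the signal that gives Klf10 its other name, 2 rose and 2 fell in the hCD4- step to pro-B in which Klf10 rose by 2.18. That step called 59.6% of all kept genes. Smad3 rose (1.56, standard error 0.11, adjusted p = 6.44e-06) and Smad2 rose (0.6), while the receptor Tgfbr1 (-1.86, 1.08e-05) and the inhibitor Skil (-0.84) fell. Between hCD4+ and hCD4- pro-B, where Klf10 was lower, 3 were lower and 0 higher, at -0.84 (Skil), -0.59 (Tgfbr2) and -0.39 (Smad3). There 20.5% of all kept genes were called. Against hCD4- pre-pro-B, 5 of the 8 were lower and 2 higher in GMP, where 65.5% of all kept genes were called. Tgfbr1 (-2.17), Tgfbr2 (-2.31), Smad4 (-0.41), Smad7 (-1.41) and Skil (-2.96) were lower, and Smad2 (0.53) and Smad3 (0.51) higher. Against hCD4+ pre-pro-B 5 were lower and 1, Smad3 (0.7), higher, with 54.1% of all kept genes called.

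Klf13's second probe followed the first in part. It read 0.42 and -0.07 in hCD4- pre-pro-B, 1.1 and 0.78 in hCD4+ pre-pro-B, 0.1 and 0.44 in hCD4- pro-B, and 0.01 and -0.27 in hCD4+ pro-B. Pre-B read 1.57 and 1.2 and GMP 0.64 and 0.33, so pre-B was highest with both probes. It rose to pre-B by 1.12 (standard error 0.24, adjusted p = 0.0071) and 1.51 (0.00124) from hCD4- and hCD4+ pro-B, close to the 1.38 and 1.4 of the first probe. The hCD4 contrasts differed for this probe (-1.16, standard error 0.33, adjusted p = 0.0407 in a fit over probes), at 0.77 in pre-pro-B and -0.4 in pro-B. The first probe gave -0.23 (0.34, adjusted p = 0.66). Whether the probes read the same transcript was not tested.

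Across the 12 arrays, which fall into 6 groups and share their slides, Klf2 and Klf4 had a Pearson correlation of 0.867, Klf4 and Klf7 of 0.845 and Klf2 and Klf7 of 0.813. Klf2 and Klf6 had 0.668, below Klf2 and Klf13 (0.749) and Klf3 and Klf7 (0.748). Klf9, with 4 of its 12 readings at background, had negative correlations with 6 of the other 7 members, from -0.933 with Klf3 to -0.283 with Klf13, and 0.507 with Klf10. Klf10 had no correlation above 0.507 with any member. These are descriptions over arrays that cluster by group. By the same measure, over 8151 named genes whose group means spanned 1 or more, those most like Klf2 were Clk1 (0.947), Fam13b (0.942) and Fgd3 (0.937). Clk1, a splicing kinase gene, had means of 2.62 and 2.4 in pre-pro-B (hCD4- and hCD4+), 1.9 and 1.32 in pro-B, 2.69 in pre-B and 1.05 in GMP. Those most like Klf4 were Fkbp15 (0.961), Cdc42se1 (0.958) and Arhgef11 (0.954), and like Klf7 Tgfb1i1 (0.981), Zc3h7a (0.98) and Rnf103 (0.979). For Klf6 they were Pmaip1 (0.92), the immediate early gene Fosb (0.912) and Dram2 (0.908).

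For Klf3 the most alike genes were Acap1 (0.984), Prickle3 (0.982) and Zcchc7 (0.981), of which Acap1 had means of 4.51 and 4 in pre-pro-B, 3.25 to 3.3 in pro-B and pre-B, and 2.27 in GMP. For Klf9 they were Xylb (0.981) and Exosc3 (0.98), and for Klf13 Tk2 (0.932), Slfn2 (0.919) and Fmnl1 (0.915). Klf10 had the least close companions, Cd69 (0.874), Mettl9 (0.87) and B9d2 (0.862). Cd69, an early activation marker of lymphocytes, had its highest mean in hCD4- pro-B too (3.12, SD 0.91) and lay at 1.45 to 1.98 in the other 5 groups.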

How the data were processed

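Each sample was hybridised to one-colour Agilent arrays; per the labels' protocols RNA was DNase-treated, linearly amplified and Cy3-labelled. The deposited intensity values are processed signals from Agilent Feature Extraction 10.7.3.1, per the file headers, already background-subtracted. The authors also deposited a table of log2 values whose normalization is not given in the sources used here; it served as an alternative. Sort gates are not given there either.

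Here log2 signal minus the array's 75th percentile was used. Outlier spots were treated as missing, a probe was kept if well above background on both arrays of a group, and a gene's kept probe with the highest mean stood for it. Limma 3.58.1 (R 4.3.3) was fitted to all 12 arrays by group (6 residual and 2.14 prior degrees of freedom), with Benjamini-Hochberg adjustment over 18565 genes and a threshold of 0.05. "At least" folds set the bright group against, per array, the dimmest probe above background or the dim probe's own reading, whichever was higher. The script was tested on simulated data. Alternatives were the scaling, background correction, filter, probe rule, array weights, replicate block, arrays in the fit and each array left out. All members are named, with list genes past the threshold as examples and the 3 genes most alike by Pearson correlation; some genes that this rule or the lists name are not reported here. Members and lists were chosen with earlier results of these data known. The number of arrays limits the precision.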

Additional observations from a re-analysis of the deposited data

Results flagged for a closer look

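Klf10 was flagged because its hCD4 contrasts differed between the 2 stages, in a test that called 23% of all kept genes (10.2% lower, 12.8% higher). Of 8 other Klf and Sp genes that test called 1 higher and 3 lower. Both hCD4 contrasts cross slides, so a slide effect cannot be told apart from them or from their difference. The hCD4+ minus hCD4- value of Klf10 was 0.71 in pre-pro-B and -1.36 in pro-B. Their difference of -2.07 (standard error 0.52) passed in limma (adjusted p = 0.0261). It ran from -2.58 to -1.72 over the alternatives and lost its call under array weights (adjusted p = 0.0568) and without any one of 5 arrays, as given above for each.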

How the results depend on the processing

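Of 88 member changes 50 were called; 27 of those passed under every alternative run, 23 were lost under at least 1, 13 uncalled ones passed under at least 1, and 0 reversed. With array median scaling the count of members called was 1 in the pre-pro-B hCD4 contrast (Klf9), 3 for GMP against pre-B (Klf3, Klf4 and Klf7 lost) and 3 for the difference of contrasts. Quantile normalization gave 1 in the pre-pro-B contrast (Klf9) and 2 for the difference; normexp with quantile normalization and the authors' deposited table also gave 2 for the difference, and array weights gave 0. With no filter on dim probes it was 1 in the pro-B contrast and 4 on slide 2. The causes were not tested. Median scaling moved the median of all genes by -0.52 to 0.45 and the share of higher calls from 52% to 83.4% in the pre-pro-B contrast, 55.9% to 31.2% in the pro-B contrast and 55.6% to 18.1% for the difference. That share also went from 60.8% to 39.2% in the hCD4+ step, 48.2% to 34.8% from hCD4- pro-B to pre-B, 53% to 69.1% for GMP against hCD4- pre-pro-B and 46.8% to 65.6% against pre-B. With 1 array left out, member counts ran from 0 to 1 in each hCD4 contrast, 0 to 2 for the difference, 5 to 6 and 5 to 7 in the hCD4- and hCD4+ steps to pro-B, 2 to 3 and 3 to 4 to pre-B, 2 to 4 on slide 2, and 4 to 6 over the GMP comparisons. Over all genes, the calls of the pre-pro-B contrast went from 3149 to 485 with only the arrays compared in the fit. With 1 array left out they ran from 1123 to 5323 there, from 1471 to 1963 in the pro-B contrast (3814 with all), from 4666 to 5350 between hCD4- pro-B and pre-B (7606) and from 2028 to 6093 for the difference (4266). Same-numbered arrays did not all deviate together (10 of 15 correlations over 0.1, median 0.152), so the numbers were not taken to pair the arrays, although Atf3, Nr4a1, Egr1, Ier3 and Dusp1 were higher on array 1 in all 6 groups. With the replicate block the hCD4- step had 8 members called, Klf13 passing (-0.54, adjusted p = 0.0484), and no other member's call changed. Dim probes limit Klf9 in pre-pro-B and Klf12 throughout.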
